A study of Mus musculus with 4 samples.

Results

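The genes described are 6 that encode parts of the NADPH oxidases: Cybb, Cyba, Ncf1, Ncf4, Rac2 and Nox4, out of 18820 genes with a named probe set. They were chosen by name. Each was measured by 1 probe set that the platform's annotation gives to that gene alone, and all 6 were among the 14115 genes kept after a filter on dim genes. RNA came from the inferior vena cava of mice 8 to 10 weeks old, male or female, on a C57BL/6J background of at least 8 generations. The 4 groups were Cd39-/- mice (CD39 knockout) 48 h after ligation of the vein, Cd39-/- mice after sham surgery, wild-type mice 48 h after ligation, and wild-type mice after sham surgery, in which the vein was dissected but not tied. CD39, encoded by Entpd1, is a surface enzyme that degrades extracellular ATP and ADP, and the knockout is not restricted to a cell type in the labels. RNA of 4 mice was pooled for each group and run on 1 array. A difference between arrays therefore has no replicate and is given without a p-value, and no spread between mice was measured. The sex of each pool, the degree of ligation (complete or partial) and the presence of clot in the RNA piece are not stated in the labels.

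The phagocyte NADPH oxidase passes electrons from NADPH across a membrane onto oxygen and makes superoxide, the source of the respiratory burst that neutrophils and macrophages use against microbes. Its membrane core, flavocytochrome b558, is a dimer of the catalytic chain gp91phox (Cybb, also called Nox2) and p22phox (Cyba). In resting cells the organiser p47phox (Ncf1) and p40phox (Ncf4) wait in the cytosol and, on stimulation, move to the membrane, as does the GTPase Rac2. Nox4 is another catalytic chain, typical of endothelial, smooth muscle and fibroblast cells. It also pairs with p22phox but needs none of the cytosolic subunits, and it releases mainly hydrogen peroxide.

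Promoter windows, from 250 bases before to 50 after a gene's annotated start (RefSeq, GRCm38.p6), were available for 4 of the 6 genes. The windows of the 2 catalytic chains are shown because these genes differed in opposite directions after ligation. Both are written 5′ to 3′ on the gene's strand, and capitals mark CG pairs and 2 searched motifs, CCAAT and GAGGAA, the core of binding sites of the myeloid factor PU.1 (TTCCTC on the other strand).
Cybb, chrX:9469275-9469574, minus strand: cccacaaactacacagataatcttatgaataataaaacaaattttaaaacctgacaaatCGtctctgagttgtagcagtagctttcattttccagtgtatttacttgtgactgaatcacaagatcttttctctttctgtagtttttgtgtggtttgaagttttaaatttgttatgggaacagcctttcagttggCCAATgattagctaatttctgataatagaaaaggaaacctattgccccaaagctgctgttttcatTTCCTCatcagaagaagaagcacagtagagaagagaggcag
Nox4, chr7:87246399-87246698, plus strand: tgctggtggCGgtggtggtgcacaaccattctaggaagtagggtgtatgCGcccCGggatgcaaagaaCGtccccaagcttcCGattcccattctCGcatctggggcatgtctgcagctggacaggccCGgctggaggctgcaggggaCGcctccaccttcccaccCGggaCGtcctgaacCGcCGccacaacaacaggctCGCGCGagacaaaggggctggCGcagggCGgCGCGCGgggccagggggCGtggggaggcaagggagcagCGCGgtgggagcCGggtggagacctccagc
The Cybb window held CCAAT at positions -56 to -52 and GAGGAA on the opposite strand at 10 to 15, counted from 1 at the annotated start. Of 32851 promoter windows of the same length, 37.4% held CCAAT and 28.3% GAGGAA on either strand. The windows of Nox4, Cyba and Ncf1 held neither, and TATAAA, present in 13.6% of all windows, was in none of the 4. Cybb's window had 35.3% G and C and 1 CG pair, and Nox4's had 68.3% and 24 CG pairs, against medians of 52.7% and 7 over all windows. Cyba (60.7%, 9 CG pairs) and Ncf1 (54.0%, 3 CG pairs) lay between them. Such matches describe the letters only. Ncf4 and Rac2 both lie on chromosome 15, with 10 protein-coding genes between them in the RefSeq table.

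The deposited values are log2 expression values, in which a step of 1 is a 2-fold difference. Levels are compared between arrays for 1 gene at a time, never between genes. As a stand-in for background, the 95th percentile of 1006 olfactory receptor probe sets was 2.68 on the ligated array labelled Cd39-null, 2.97 in Cd39-null, sham, 2.66 in wild type, ligated, and 2.94 in wild type, sham. The 6 genes lay above it on every array except Ncf4 in wild type, sham. The targeted gene Entpd1 had 6.14 on the ligated array labelled Cd39-null and 4.16 in Cd39-null, sham, against 6.17 in wild type, ligated, and 7.11 in wild type, sham. Entpd1 was thus low in the knockout after sham surgery only, so the other Cd39-null array disagrees with its label at this gene. It is called the ligated array labelled Cd39-null here, and every direction drawn from it rests on that label. It is not known here if the Entpd1 probe set covers the deleted part of the gene.

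After ligation the 5 genes of the phagocyte oxidase were higher in both genotypes, as were 34.7% of all genes kept by any amount, and Nox4 was lower in both, as were 33.6%. In wild-type veins Cyba differed most of the 6 (7.72-fold). With the ligated array labelled Cd39-null, it was Ncf1 (7.78-fold), and Cybb was then the only phagocyte gene under 2-fold. Both ligated arrays lay above both sham arrays for Cybb, Cyba, Ncf1, Ncf4 and Rac2, a pattern that 28% of all genes kept had, and below them for Nox4, as for 26%.

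**Figure D1:**
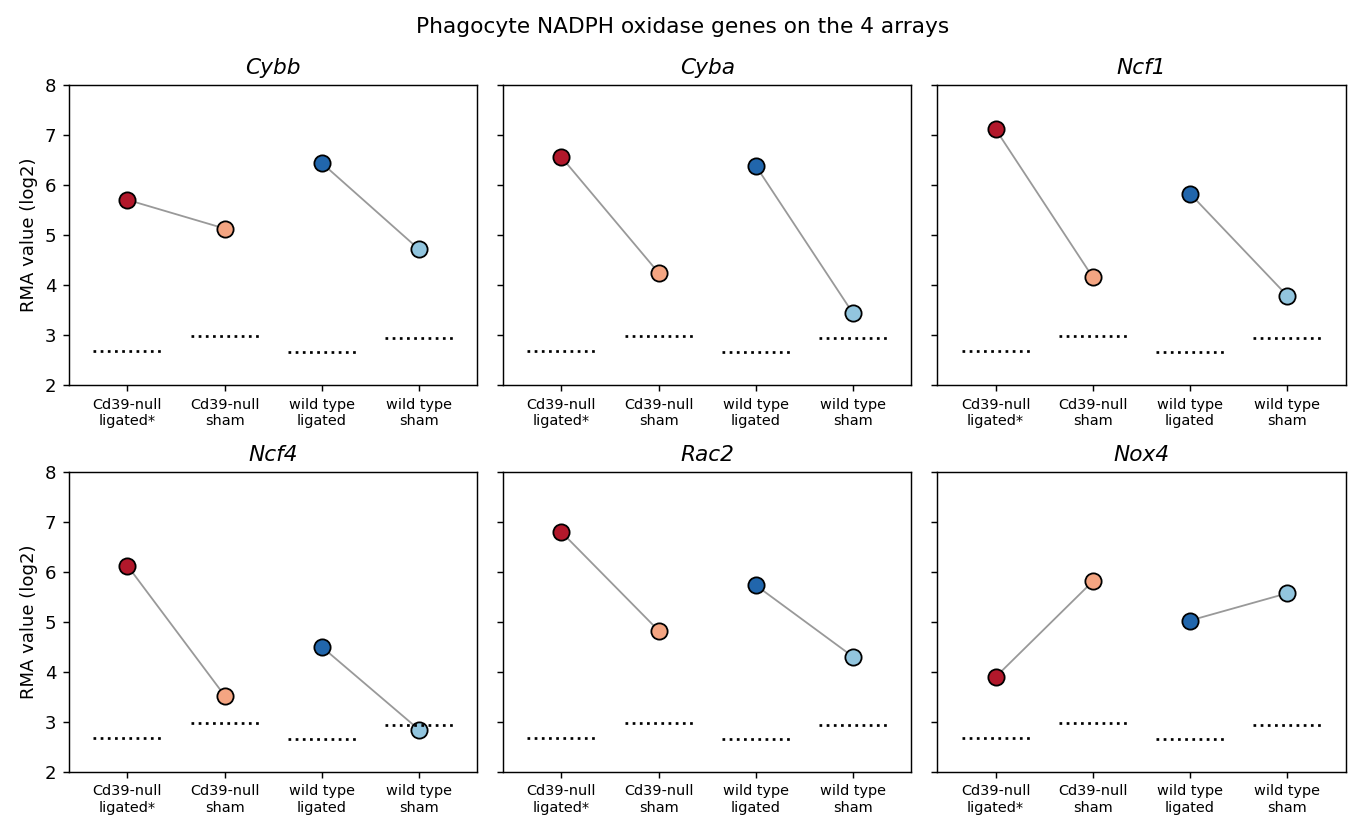
Log2 value of each gene (y axis) on the 4 arrays (x axis), 1 point for 1 pool of 4 mice, with no error bars because no pool was repeated. Grey lines join the 2 arrays of a genotype, dotted lines are the olfactory receptor background of each array, and the asterisk marks the array whose Entpd1 level goes against its label; Ncf1 reaches 7.12 there, against 4.16 in Cd39-null, sham.

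The catalytic chain Cybb had a log2 value of 5.70 on the ligated array labelled Cd39-null, against 5.13 in Cd39-null, sham, and 6.44 in wild type, ligated, against 4.71 in wild type, sham. Its highest value was thus in the ligated wild-type vein. The ligation difference was 0.57 log2 (1.49-fold) in Cd39-null and 1.73 (3.31-fold) in wild type. Among the 14115 genes, ranked from the highest difference down, Cybb stood at rank 3177 in Cd39-null and at rank 216 in wild type.

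Its partner Cyba, without which gp91phox is not stable, had 6.55 on the ligated array labelled Cd39-null, against 4.24 in Cd39-null, sham, and 6.38 in wild type, ligated, against 3.43 in wild type, sham. The ligated arrays were nearly level, while the sham arrays differed by 0.81 between the genotypes. Ligation differences were 2.31 log2 in Cd39-null and 2.95 in wild type, where only 6 genes of all those kept had a higher one.

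The organiser Ncf1 had 7.12 on the ligated array labelled Cd39-null, against 4.16 in Cd39-null, sham, and 5.83 in wild type, ligated, against 3.79 in wild type, sham. These are ligation differences of 2.96 log2 (7.78-fold, rank 87) in Cd39-null and 2.04 (4.11-fold, rank 107) in wild type. Ncf4, whose product binds a phosphoinositide of the phagosome membrane, had 6.12 against 3.52 in the Cd39-null pair and 4.50 against 2.84 in the wild-type pair, ligated before sham in each. Its differences were 2.60 log2 in Cd39-null and 1.66 in wild type, and since the wild-type sham value lay under the background, the size of the wild-type difference is approximate. Rac2, the GTPase of blood cells that switches the assembled oxidase on, had 6.79 on the ligated array labelled Cd39-null, against 4.82 in Cd39-null, sham, and 5.73 in wild type, ligated, against 4.30 in wild type, sham. The differences of Rac2 were 1.97 log2 in Cd39-null and 1.43 in wild type. For all 3 cytosolic components the ligated array labelled Cd39-null was the highest of the 4, followed by wild type, ligated, Cd39-null, sham, and wild type, sham.

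Nox4 ran the other way. It had 3.89 on the ligated array labelled Cd39-null, against 5.81 in Cd39-null, sham, and 5.02 in wild type, ligated, against 5.57 in wild type, sham. The ligation difference was -1.91 log2 (3.77-fold lower) in Cd39-null and -0.55 (1.46-fold lower) in wild type. Its sham arrays were within 0.24 of each other, and its ligated arrays were 1.13 apart.

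**Figure D2:**
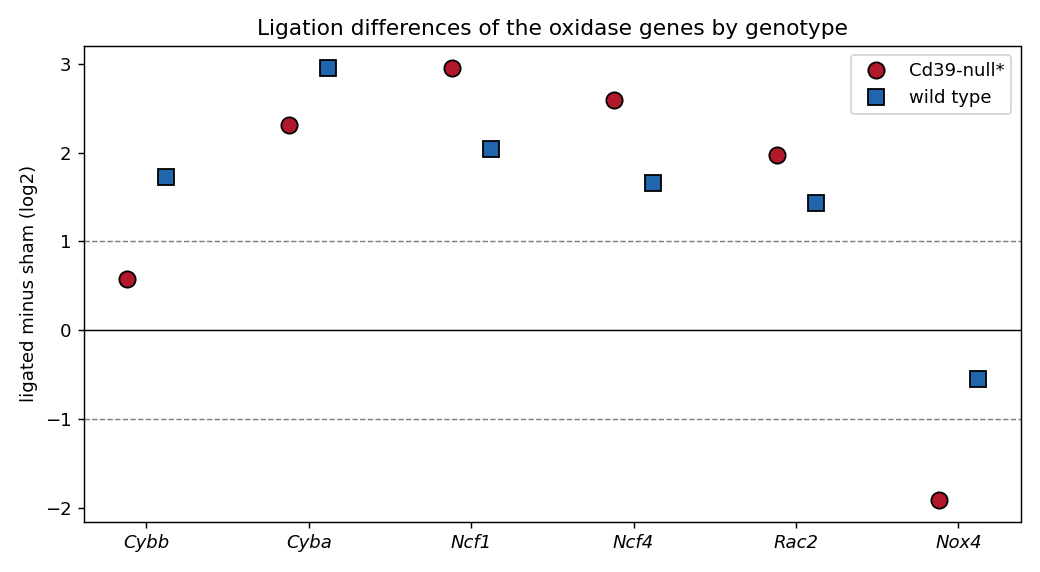
Ligated minus sham in log2 units (y axis) for each gene (x axis), with circles for Cd39-null, whose ligated array carries the asterisk for its Entpd1 level, and squares for wild type. Dashed lines mark 2-fold; Cybb lies at 0.57 in Cd39-null and 1.73 in wild type, and Nox4 at -1.91 and -0.55.

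Counted at 2-fold, 4 of the 6 genes were higher and 1 (Nox4) lower after ligation in Cd39-null, where 10.9% of all genes kept were higher and 5.8% lower. In wild type 5 of 6 were higher and none lower, where 6.6% of all genes were higher and 3.63% lower. Cyba, Ncf1, Ncf4 and Rac2 passed 2-fold upward in both genotypes, as did 3.63% of all genes, and none of the 6 was 2-fold lower in both, as were 1.45%. The median ligation difference of the 6 genes was 2.14 in Cd39-null and 1.69 in wild type, beside 0.03 and -0.01 over all genes kept. These counts hold no test. Tests over more than 1 array a side came from an additive model of ligation and genotype, fitted with limma on all 14115 genes and adjusted by Benjamini-Hochberg; its ligation term set the 2 ligated arrays against the 2 sham arrays. It has 1 residual degree of freedom, and where the genotypes responded unequally the inequality counts as error. No gene passed an adjusted p of 0.05 for ligation. Without adjustment 13.2% of all genes had a limma p under 0.05 and were higher, and 7.79% lower, while all 6 oxidase genes had one, 5 higher and Nox4 lower. After quantile normalization, and likewise after cyclic loess, 5 of the 6 had one. The mean ligation difference in limma was 2.63 ± 0.27 (SE) log2 for Cyba, 2.50 ± 0.31 for Ncf1, 2.13 ± 0.31 for Ncf4 and 1.70 ± 0.25 for Rac2, each with an adjusted p of 0.0952. It was 1.15 ± 0.35 for Cybb (limma adjusted p 0.178) and -1.23 ± 0.39 for Nox4 (limma adjusted p 0.188). With 1 array left out, only a model of ligation alone could be fitted. Without the wild-type ligated array, 79 genes passed in limma, Ncf1 among them (3.14, adjusted p 0.0484), but the ligated side was then only the array labelled Cd39-null, and the error came from the 2 sham arrays of unlike genotype, so the lone array is assumed to vary as they do. The same limma model, with the same limit, without the ligated array labelled Cd39-null gave 0 calls and smaller differences for Ncf4 (1.32) and Nox4 (-0.66), and without the wild-type sham array only 2 of the 6 genes kept an unadjusted p under 0.05.

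The genotypes were then compared within each surgery. In sham veins none of the 6 genes was 2-fold apart, where 2.95% of all genes kept were higher in Cd39-null and 3.54% lower, though all 6 were higher in Cd39-null by some amount, as were 43.3% of all genes, by 0.24 (Nox4) to 0.81 log2 (Cyba). In ligated veins Ncf4 (1.62), Ncf1 (1.29) and Rac2 (1.06) were at least 2-fold higher in Cd39-null than in wild type, by the label, beside 3.61% of all genes. Nox4 was at least 2-fold lower (-1.13), beside 2.66%. Cyba differed by 0.17 and Cybb by -0.74. Both chains of the membrane core were thus less than 2-fold apart, unlike the 3 cytosolic components. Averaged over both surgeries in limma's additive model, the genotype difference was 1.15 ± 0.31 (SE) for Ncf4, 0.83 ± 0.31 for Ncf1 and 0.79 ± 0.25 for Rac2, with limma adjusted p-values of 0.679, 0.712 and 0.689. These 3 had an unadjusted limma p under 0.05, as did 2.28% of all genes on the higher side; on the lower side 4.65% did and none of the 6. For no gene was the adjusted p under 0.05. The ligation difference in Cd39-null minus that in wild type was -1.37 for Nox4, -1.15 for Cybb and -0.64 for Cyba, against 0.94 for Ncf4, 0.92 for Ncf1 and 0.54 for Rac2. Of all genes kept, 6.99% had such a difference of at least 1 and 5.5% of -1 or below, and Nox4 and Cybb were the 2 oxidase genes past that size. No test of it exists with 1 array a group.

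Genes of the most similar pattern were sought for each oxidase gene over the 4 arrays, as the smallest root mean square difference (in log2) between values centred on each gene's own mean. For Cybb these were Cd163 (0.05), the hemoglobin scavenger receptor of macrophages, C1qb (0.05), a chain of complement C1q, Tmem97 (0.05) and the endothelin receptor Ednrb (0.06). Cyba was closest to Laptm5 (0.07), a lysosomal protein of blood cells, the chemokines Ccl6 (0.16) and Ccl9 (0.16), and Spi1 (0.20), which encodes PU.1. Ncf1 was closest to the receptor Lilr4b (0.09), Pgd (0.15), the 5-lipoxygenase activating protein Alox5ap (0.17) and the protease Mmp19 (0.18). Pgd encodes 6-phosphogluconate dehydrogenase, an enzyme that makes NADPH. Ncf4 was closest to Fermt3 (0.04), the kindlin of blood cells, Tnfaip6 (0.07), the integrin chain Itgb2 (0.17) and Cd44 (0.18). Rac2 was closest to Cd300ld (0.02), Alox5 (0.08), Arhgap45 (0.08) and Gla (0.09). Nox4 was closest to the matrix protein Matn2 (0.09), the glial connexin Gjc3 (0.11), Ndn (0.12) and Bhlhb9 (0.13). With 4 arrays such a likeness is a description, and small distances are more common for genes that vary little. Predicted and RIKEN genes, microRNAs, small nucleolar RNAs, olfactory and vomeronasal receptors and antigen receptor segments were left out of the choice of similar genes. Distances to all genes and counts of closer genes include them. The median distance to all genes was 0.69 for Cybb and 0.76 for Nox4, against 1.37 for Cyba, 1.36 for Ncf1, 1.26 for Ncf4 and 0.98 for Rac2.

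**Figure D3:**
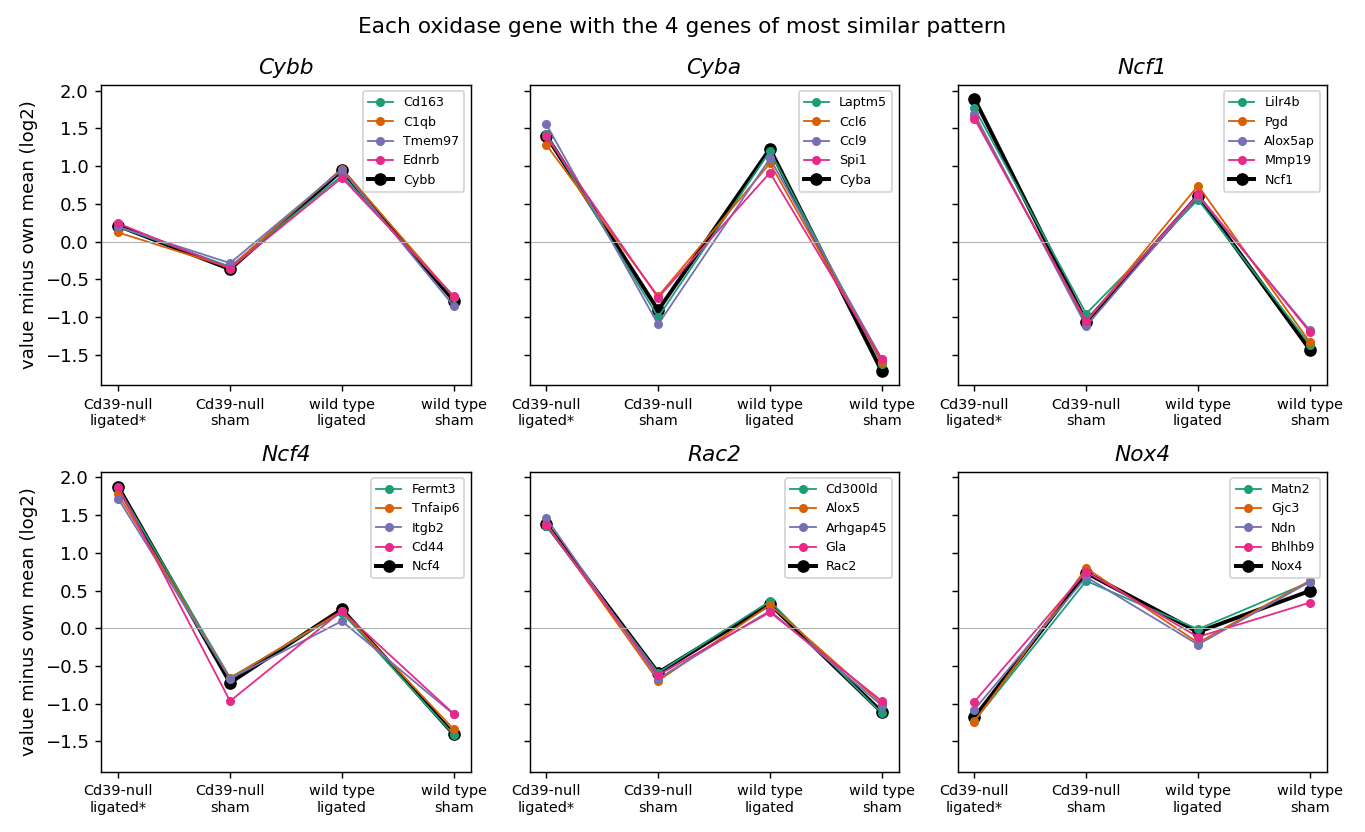
Log2 values minus the gene's own mean over the 4 arrays (y axis) by array (x axis), for each oxidase gene (black) and its 4 most similar genes (colours); lines only join the points of a gene. Cybb peaks in wild type, ligated, while Ncf1, Ncf4 and Rac2 peak on the ligated array labelled Cd39-null (asterisk), and Nox4 is lowest there.

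Among themselves the oxidase genes were close for the cytosolic components, with distances of 0.25 between Ncf1 and Ncf4, 0.30 between Ncf4 and Rac2 and 0.41 between Ncf1 and Rac2. Cyba was 0.43 from Ncf1 and 0.82 from Cybb. Of all other genes kept, 9 were closer to Ncf1 than Ncf4 was. Cyba and its dimer partner Cybb were less alike, with 585 genes closer to Cyba than Cybb was and 10533 closer to Cybb than Cyba was, beside median distances of all genes of 1.37 to Cyba and 0.69 to Cybb.

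Genes that act with the oxidase were read from lists. Their 2-fold counts after ligation, and those of the cell type markers further on, stand beside the shares of all genes kept. These were 10.9% higher and 5.8% lower in Cd39-null, and 6.6% higher and 3.63% lower in wild type. Of the direct partners, 3 were measured. Cybc1, which helps the gp91phox and p22phox dimer mature, had 4.32 on the ligated array labelled Cd39-null, against 3.83 in Cd39-null, sham, and 3.90 in wild type, ligated, against 3.47 in wild type, sham. Its differences of 0.49 and 0.43 were thus under 2-fold. Nrros, described in mice as a negative regulator of gp91phox, was higher by 0.91 in Cd39-null and 1.39 in wild type. The Nox4 partner Poldip2 was higher by 0.29 and 0.49, where Nox4 was lower. Of the other oxidase genes, 6 of 8 were measured and 4 of these were at or under the background on all 4 arrays, Nox1 among them (1.87 to 2.21). The organiser Noxo1 was lower by 0.77 in Cd39-null and 0.12 in wild type, less than 2-fold, and lay under the background on the ligated array labelled Cd39-null.

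Of 12 measured GTPases, exchange factors and kinases that act on the oxidase, 7 were at least 2-fold higher after ligation in Cd39-null and 4 in wild type, 3 of them in both, and none was 2-fold lower. The median was 1.11 in Cd39-null and 0.60 in wild type. The Rac exchange factor Vav1 differed by 1.86 in Cd39-null and 1.96 in wild type, and Prex1, another one, by 1.36 and 1.34. Prkcd, a kinase that phosphorylates p47phox, differed by 1.77 and 1.23. Rac1, the widely expressed relative of Rac2, differed by 0.59 and 0.08 only. Receptors that trigger the burst, listed together with the kinase Syk, were higher throughout. Of these genes, 8 of 8 that were measured passed 2-fold in Cd39-null and 6 of 8 in wild type, with medians of 2.24 and 1.35. The complement C5a receptor C5ar1 differed by 3.92 in Cd39-null and 2.35 in wild type, the integrin chain Itgam by 3.65 and 2.17, and the antibody receptors Fcgr3 by 2.26 and 1.84 and Fcgr1 by 2.22 and 1.47. Itgam and Fcgr1 are also among the monocyte and macrophage markers read further on, so these lists share genes.

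Enzymes of NADPH supply were mixed, with 2 of 6 at least 2-fold higher and 1 lower in Cd39-null, and 1 higher and 1 lower in wild type. Pgd had 6.73 on the ligated array labelled Cd39-null, against 4.01 in Cd39-null, sham, and 5.82 in wild type, ligated, against 3.74 in wild type, sham, differences of 2.72 and 2.08. The malic enzyme Me1, which also makes NADPH and is abundant in fat, was lower by 2.53 in Cd39-null and 1.28 in wild type. Adipocyte markers had a median level of 5.59 on the ligated array labelled Cd39-null, against 7.36 in Cd39-null, sham, and of 6.00 in wild type, ligated, against 5.54 in wild type, sham, and their part in the Me1 values was not tested. Taldo1, of the same pentose phosphate pathway as Pgd, differed by 1.71 in Cd39-null and -0.41 in wild type, and Pgls, also of that pathway, by 0.66 and 0.68.

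Genes that dispose of superoxide and peroxide stayed mostly under 2-fold, as did most genes kept. None of 7 was past it in Cd39-null, where 10.9% of all genes kept were higher and 5.8% lower. In wild type 1 was past it, where 6.6% were higher and 3.63% lower. It was the plasma glutathione peroxidase Gpx3 (0.98 in Cd39-null and 1.71 in wild type). Gpx1 differed by 0.60 and 0.81, the cytosolic superoxide dismutase Sod1 by 0.23 and 0.73, and the mitochondrial Sod2 by -0.38 and -0.07. Of 6 transcription factors of myeloid oxidase genes, Spi1 alone was past 2-fold upward in both genotypes, by 2.14 in Cd39-null and 2.47 in wild type. Irf1 differed by 1.18 and 0.51, Irf8 by 0.63 and 1.05, and Cebpa by -0.83 and 0.23. By limma's unadjusted p under 0.05 for ligation over both genotypes, 7 of 8 triggering genes (receptors and Syk) were higher. So were 6 of 12 GTPases and their regulators, 3 of 6 transcription factors and 2 of 6 NADPH supply enzymes. Higher too were 2 of 7 disposal genes and 1 of 3 partners, but 0 of 3 other oxidases. Lower were 1 GTPase and 1 NADPH supply enzyme. Of all genes kept, 13.2% were higher and 7.79% lower by the same unadjusted limma p. After adjustment over all genes limma called none of the listed genes.

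**Figure D4:**
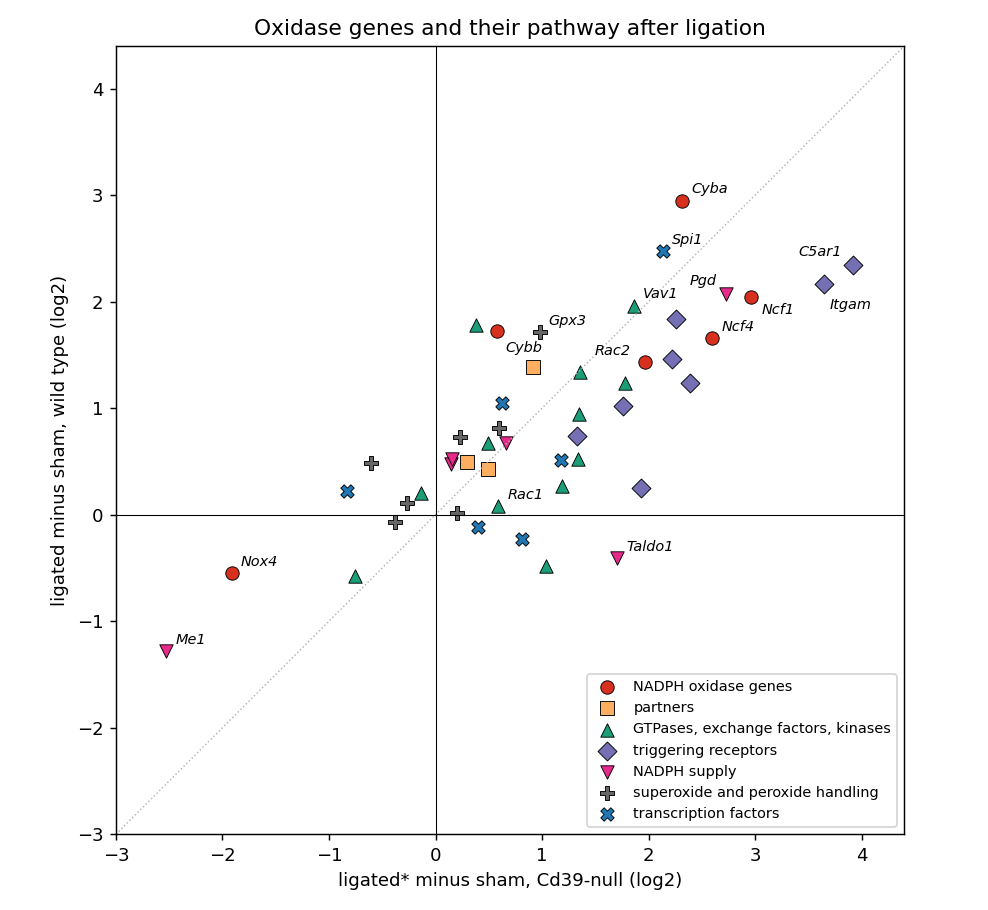
Ligated minus sham in log2 units in Cd39-null (x axis, its ligated array marked by the asterisk) and in wild type (y axis), 1 point for 1 gene kept, coloured by list; the dotted diagonal is an equal difference in both. Triggering receptors, drawn together with Syk, and the cytosolic components lie to the right of the diagonal. Cybb and Cyba lie above it, and Me1 and Nox4 at the lower left.

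Markers of neutrophils, macrophages and B cells, which carry the oxidase, were read beside these genes. Monocyte and macrophage markers had a median ligation difference of 1.39 in Cd39-null and 1.96 in wild type, neutrophil markers 2.08 and 0.02, and B cell markers -2.22 and -0.33. In bulk RNA, fewer or more cells of a type cannot be told apart from less or more RNA per cell. Monocyte and macrophage markers (18 of 20 measured) had a median level of 7.14 on the ligated array labelled Cd39-null, against 4.84 in Cd39-null, sham, and 6.90 in wild type, ligated, against 4.86 in wild type, sham. Their linear values, summed and put back on the log2 scale, were 11.85 against 10.03 and 11.67 against 9.82 in the same order. Of these, 11 were at least 2-fold higher in Cd39-null and 15 in wild type. Lyz2 differed by 1.80 in Cd39-null and 2.23 in wild type, Cd68 by 1.72 and 2.38, and C1qc by 0.08 and 0.91. Between the ligated arrays, 4 of the 18 markers were at least 2-fold higher on the one labelled Cd39-null and 4 lower. The shares of all genes kept were 3.61% and 2.66%. Neutrophil markers (17 of 20 measured) had a median of 7.35 on the ligated array labelled Cd39-null, against 3.92 in Cd39-null, sham, and 4.11 in wild type, ligated, against 3.64 in wild type, sham. Their summed level was 12.42 against 11.46 in Cd39-null and 10.33 against 10.44 in wild type. Of these neutrophil markers, 9 were at least 2-fold higher in Cd39-null and 3 in wild type. The brightest, S100a8 and S100a9, differed by -0.17 and 0.57 in Cd39-null and by -0.66 and -0.02 in wild type. By median level, neutrophil markers were thus high on the array where Ncf1, Ncf4 and Rac2 were highest, as were platelet markers. The brightest of them, S100a8, was instead highest in Cd39-null, sham (10.22, against 10.05 on that array). Macrophage markers were high on both ligated arrays by median level. The median distance of the macrophage markers to Cybb was 0.45 and that of the neutrophil markers 1.28. In the same order these were 0.84 and 1.29 for Cyba, 0.92 and 1.15 for Ncf1, and 0.77 and 0.95 for Rac2. For Ncf4 alone they were nearly equal, 0.95 and 0.94. The part of either cell type in the oxidase values was not tested.

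Other leukocytes and platelets went differently. Of 9 B cell markers, cells that also carry the oxidase, none was 2-fold higher after ligation, and 8 were lower in Cd39-null and 1 in wild type. Their summed level was 6.09 on the ligated array labelled Cd39-null, against 8.29 in Cd39-null, sham, and 6.01 in wild type, ligated, against 6.54 in wild type, sham. Eosinophil markers were at or under the background on all 4 arrays for 3 of 5. Platelet markers had a median of 8.31 on the ligated array labelled Cd39-null, against 3.84 in Cd39-null, sham, and 3.57 in wild type, ligated, against 4.85 in wild type, sham.

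Markers of wall cells, in which Nox4 is typical, and of adipocytes and T or NK cells were read beside it. Smooth muscle markers had a median of 5.28 on the ligated array labelled Cd39-null, against 5.38 in Cd39-null, sham, and 6.13 in wild type, ligated, against 6.74 in wild type, sham. Their summed level was 9.32 against 9.99 in Cd39-null and 10.75 against 11.23 in wild type. Summed endothelial markers were 10.40 against 10.23 in Cd39-null and 10.14 against 11.11 in wild type, and summed fibroblast markers were 10.14 against 10.66 and 10.91 against 10.78. In Cd39-null, sham, the endothelial and smooth muscle sums were lower than in wild type, sham, while Nox4 was 0.24 higher. Of 9 fibroblast markers, the collagens Col1a1, Col1a2 and Col3a1 were at least 2-fold higher after ligation in both genotypes, and 2 were at least 2-fold lower in Cd39-null, Lum among them (-1.41, and -0.19 in wild type). Adipocyte and T or NK cell markers had median ligation differences of -1.36 and -1.11 in Cd39-null, against 0.03 and -0.29 in wild type. Summed adipocyte markers were 9.61 against 11.35 in Cd39-null and 9.91 against 9.93 in wild type, and summed T or NK cell markers 6.41 against 7.49 and 6.02 against 6.48, ligated before sham. The median distance to Nox4 was 0.65 for adipocyte and 0.68 for T or NK cell markers, 0.74 for fibroblast, 0.76 for endothelial and 0.87 for smooth muscle markers. Over all genes it was 0.76, close to most of these medians. By single markers the nearest was Lum of fibroblasts (0.28), before Adipoq of adipocytes (0.33) and Nkg7 of T or NK cells (0.36). The part of any of these cell types in the Nox4 values was not tested.

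**Figure D5:**
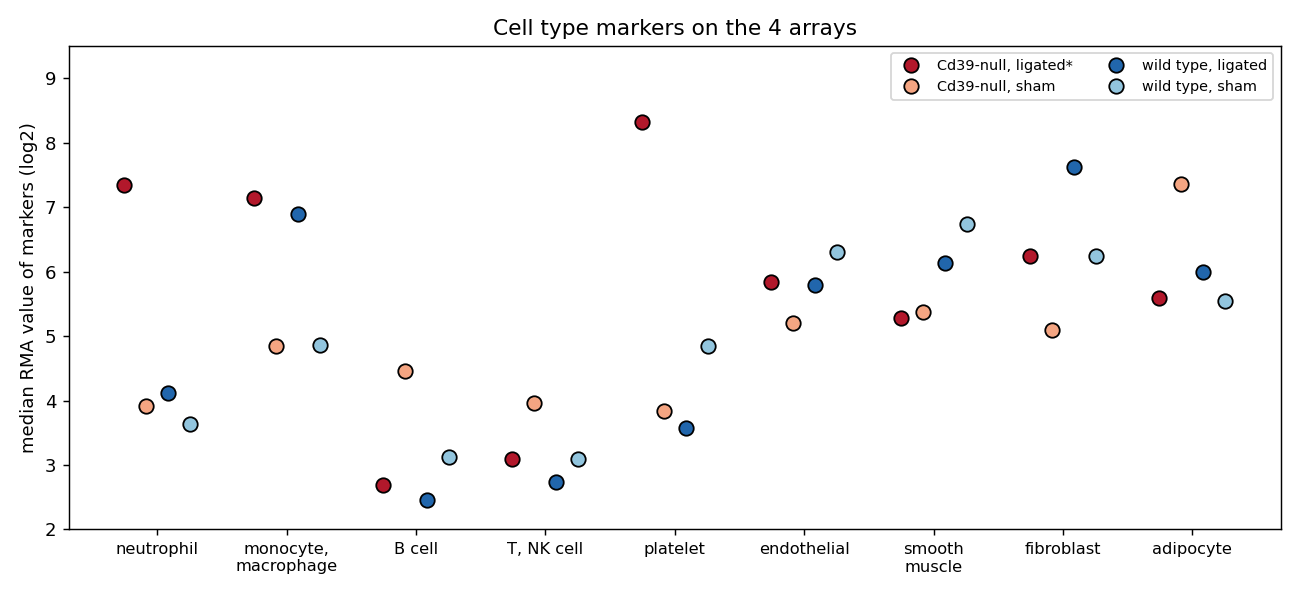
Median log2 value of the measured markers of each cell type (y axis) on the 4 arrays (colours), 1 point for 1 array and no error bars. Monocyte and macrophage markers are high on both ligated arrays, and neutrophil and platelet markers on the ligated array labelled Cd39-null (asterisk), only.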

How the data were processed

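Total RNA of the vein was extracted with Trizol, amplified as cDNA, biotinylated and hybridised to an Affymetrix array, per the labels' protocols. The authors deposited a log2 expression value for each probe set, which they had computed by RMA with oligo, per the submitters' processing notes; versions and genome build are not stated there. RMA equalises arrays at the level of single probes, so a shift in all RNA would be hidden. The deposited probe set values still differed a little, with medians from 2.97 on the ligated array labelled Cd39-null to 3.04 in wild type, sham. A single gene symbol was given to 21218 of 35556 probe sets, several to 1881 and none to 12457; the 6 oxidase genes matched RefSeq by Entrez identifier. The brightest probe set by mean stood for each gene. Genes with a mean at or above the 25th percentile (2.29) were kept. For arrays no read depth applies, and their number limits the precision.

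Differences were taken between single arrays and called at 2-fold. The additive model was fitted with limma 3.58.1 (lmFit, eBayes, prior degrees of freedom 3.67) in R 4.3.3 and tested on simulated data. Alternatives changed normalization, probe set, filter, background floor, model and arrays. Named genes were the 6, up to 4 per pathway list by mean ligation difference, Cybc1, Rac1, Spi1, Nox1, the 4 most similar genes per oxidase gene, and up to 3 bright markers per cell type. Cd163 and C1qb came from the similarity rule, and the 3 collagens were named after their values were seen. The genes and lists were chosen with earlier results of these data known. Protein sequences were not used here.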

Additional observations from a re-analysis of the deposited data

Results flagged for a closer look

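Several genes differed between the genotypes in opposite directions in the ligated and the sham veins, with a gap of at least 1 log2 between both differences; none of these gaps was tested, since each group has 1 array. For the oxidase genes, Cybb was 0.74 lower in Cd39-null than in wild type after ligation and 0.42 higher after sham surgery (gap -1.15), and Nox4 was 1.13 lower and 0.24 higher (gap -1.37). Among pathway genes the gap was 1.57 for C5ar1, 1.48 for Itgam, -1.25 for Me1, 2.11 for Taldo1 and -1.06 for Cebpa. Taldo1 and Cebpa also had ligation differences of opposite sign, 1.71 in Cd39-null and -0.41 in wild type for Taldo1 and -0.83 and 0.23 for Cebpa. All of these gaps use the ligated array labelled Cd39-null, whose Entpd1 level goes against its label.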

How the results depend on the processing

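The counts of oxidase genes at least 2-fold apart were the same under every alternative run for the ligation differences (5 in each genotype) and the genotype differences (0 in sham and 4 in ligated veins); for the difference of ligation differences they were 2 to 3, with Ncf4 reaching 1.04 once values under the background were set to it. No oxidase gene changed the direction of any difference. Averaging probe sets or changing the filter could move neither these counts nor the directions, since each oxidase gene has 1 probe set and stayed kept. The floor at background could move only Ncf4. Sizes did move with normalization. Cybb's ligation difference in Cd39-null was 0.57 as deposited, 0.28 after quantile normalization and 0.32 after cyclic loess. Rac2's genotype difference in ligated veins was 1.06, 1.01 and 1.03 in the same order, close to the 2-fold cut. With wild type, sham, in place of Cd39-null, sham, the ligated array labelled Cd39-null was higher by 3.12 for Cyba, 3.28 for Ncf4 and 0.99 for Cybb. Centring arrays on their median moved the median ligation difference of all genes to -0.10 in both genotypes, and the floor at background to -0.30 in Cd39-null and -0.28 in wild type. Of genes 2-fold apart after ligation in Cd39-null, 65.3% were higher as deposited, 51.4% after quantile normalization, 53.9% after cyclic loess and 52.6% after centring; in wild type 64.5% and, after centring, 53.5%; between sham veins 45.5%, with 58.4% after cyclic loess and 60.3% after centring. In limma, leaving out 1 array gave 0 to 1 oxidase genes and 0 to 79 of all genes past the adjusted p for ligation, from a model of ligation alone; the additive model has no residual degree of freedom then. Leave-one-out limma estimates ranged from 0.78 to 1.52 for Cybb and from -1.79 to -0.66 for Nox4. In the model of ligation alone, 1572 genes had an unadjusted limma p under 0.05 without the ligated array labelled Cd39-null, against 2706 with all arrays (2960 in the additive model), and the genotype term alone gave 290 against 979 and 0 oxidase genes against 3. No paired analysis was possible because each group has 1 array. Dim genes are limited by background: Ncf4 in wild type, sham, lay under it, so the size of its wild-type ligation difference is approximate.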
